A study of Mus musculus with 6 samples.

Results

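Expression of 8 genes that carry the signal of fibroblast growth factor (FGF) receptors to the kinase ERK was examined at E14.5 in mouse lenses, in the region called the transition zone. The genes were Frs2, Shc1, Grb2, Ptpn11, Crk, Crkl, Braf and Mapk3. They were chosen with earlier results of these data known, and were taken by symbol from the deposited count table of 23420 genes. All 8 were among the 12257 genes with enough counts to be tested. In the transition zone, cells of the lens epithelium stop dividing and start to lengthen as fibre cells. There were 3 mutant libraries, labelled Le-Cre, Etv4-/-, Etv5 fl/fl and Etv1 fl/fl, and 3 control libraries, labelled Le-Cre. Both groups therefore carried Le-Cre, a transgene that drives Cre recombinase from Pax6 regulatory sequence in the ectoderm from which the lens grows. Etv4 is a null allele in every cell of the mutant embryos, whereas Etv5 and Etv1 are deleted only where Cre has acted. Etv1, Etv4 and Etv5 encode the Pea3 factors, ETS transcription factors that respond to FGF signalling. The strain background was mixed in both groups. Whether libraries of a group stem from different embryos is not stated in the labels, so a p-value reflects the spread over these libraries, which may in part be technical.

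In the textbook pathway, an FGF receptor phosphorylates the docking protein Frs2, which binds the adaptor Grb2 and the phosphatase Shp2, the product of Ptpn11. Grb2 brings the exchange factor Sos to Ras, and Ras activates the Raf, MEK and ERK kinases in turn. Shc1 is another adaptor between receptors and Grb2, and Crk and Crkl are related adaptors that link phosphorylated proteins to regulators of small GTPases. In the mouse lens, FGF signalling is needed for lens formation and for fibre cell differentiation, and ERK activity raises the expression of the Pea3 genes.

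Library totals lay between 13364742 and 17301168 counts. Genes of crystallins, the main lens proteins, held 21.7%, 32.2% and 19.5% of all counts in mutant libraries 1, 2 and 3, against 37.6%, 30.2% and 21.8% in control libraries 1, 2 and 3. Mutant library 2 thus stood apart from the others of its group, whereas the control libraries were spread out, with control library 1 the highest. Xist had 711 and Ddx3y 2 counts in mutant library 1, whereas each of the other 5 libraries had at least 521 counts of Ddx3y and at most 3 of Xist, so this library differed in sex. Summed markers of lens fibre cells lay between 137150 and 255880 CPM in mutant and between 134260 and 300700 CPM in control libraries. CPM are counts relative to the scaled library total. Of the 10 fibre markers, 1 was called lower in mutant libraries by edgeR at the threshold given below, and 0 higher. Over all tested genes 1.08% were called lower. Summed markers of the lens epithelium lay between 376.7 and 639.7 CPM in mutant and between 347.3 and 907.6 CPM in control libraries. None of the 6 retinal markers had enough counts to be tested, and their sum was at most 0.981 CPM in mutant and 0.790 CPM in control libraries. Of the targeted genes, Etv1 averaged 26.5 CPM ± 4.25 in mutant and 57.4 CPM ± 12.7 in control libraries, Etv5 averaged 103.5 CPM ± 18.0 in mutant and 196.8 CPM ± 42.3 in control libraries, and Etv4 averaged 4.28 CPM ± 0.611 in mutant and 2.75 CPM ± 0.562 in control libraries (SD, n = 3). Undeleted exons also contribute to a gene's count, so these values do not check the labels.

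None of the 8 genes passed a Benjamini-Hochberg adjusted p of 0.05 in edgeR's quasi-likelihood test, which called 272 genes, or 2.22% of those tested. At an unadjusted p under 0.05 there were 3 of the 8, against 16.2% of all tested genes. The groups did not overlap for 3 of the 8 genes, against 22.7% of all tested genes. Ptpn11 and Mapk3 were higher in every mutant library, as were 11.4% of all tested genes, and Shc1 was lower in every mutant library, as were 11.3%. Frs2, Grb2, Crk, Crkl and Braf had overlapping values. DESeq2 called none of the 8, where it called 6.7% of the tested genes. limma voom, run throughout with weights for library quality, called Ptpn11 alone, where it called 6.59%. With crystallin share as a covariate in edgeR, none of the 8 passed and 6.51% of all tested genes did. The authors' deposited table also has none of the 8 under an adjusted p of 0.05, where 6.11% of its genes are. The median size of the log2 fold change was 0.14 over the 8 genes and 0.25 over all tested genes, and the smallest among the genes called by edgeR was 0.60. In bulk RNA, a lower value of a gene cannot be told apart from fewer cells that express it.

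**Figure D1:**
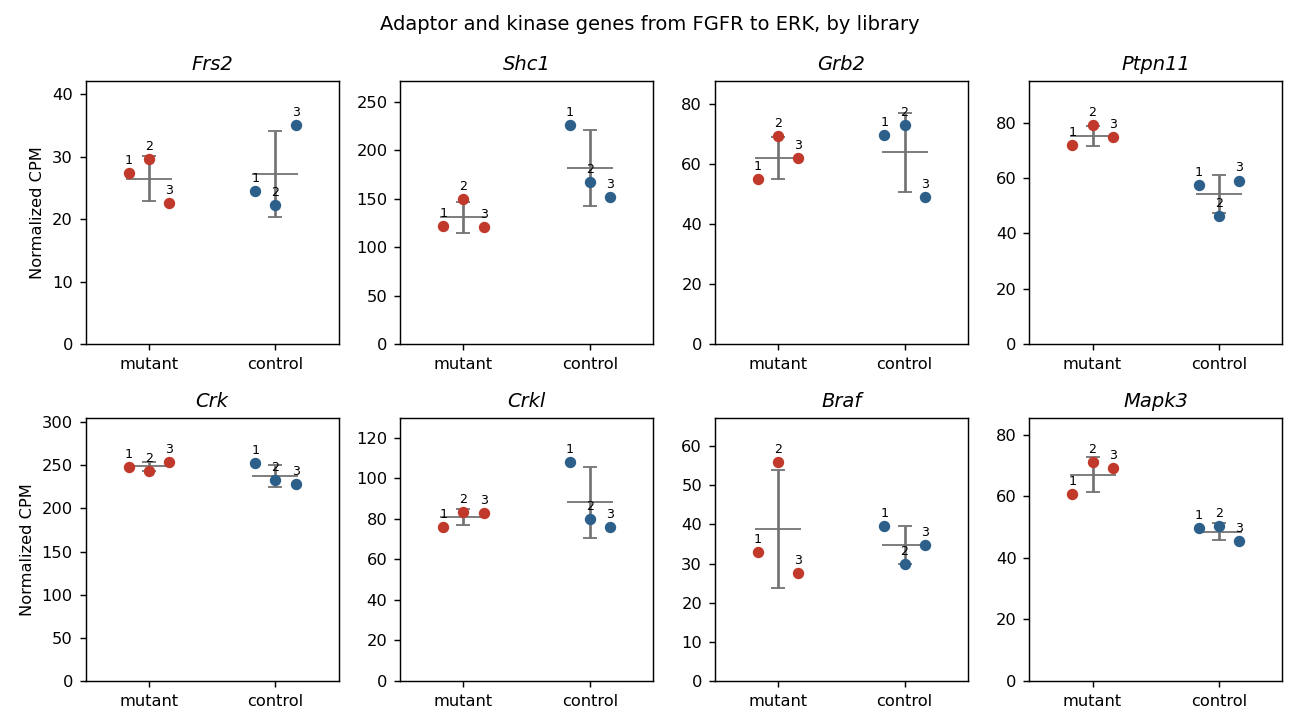
Normalized CPM of the 8 genes in each library, with mutant libraries on the left of each panel and control libraries on the right; numbered points are libraries, and grey bars show the mean and SD of 3. Ptpn11 and Mapk3 lie higher in all 3 mutant libraries, Shc1 lies lower, and the remaining panels overlap.

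Frs2, which encodes the docking protein bound by FGF receptors, had the fewest counts of the 8 genes in sum, between 327 and 633 per library. Its values were 27.4, 29.6 and 22.5 CPM in mutant libraries 1, 2 and 3, against 24.4, 22.3 and 35.1 CPM in control libraries 1, 2 and 3. The groups overlapped fully, with control library 3 the highest of all 6 libraries. The log2 fold change was -0.04 ± 0.22 (edgeR adjusted p = 0.942; SE), with a 95% interval of -0.54 to 0.46. Without control library 3 the log2 fold change was 0.18, and without control library 2 it was -0.17, so its sign rested on single libraries. The upstream promoter of Frs2 is shown with those of Ptpn11 and Shc1 below. Of the 8 genes, 7 had a promoter searched (all but Mapk3), and Frs2 and Ptpn11 are those whose promoter holds the motif CCGGAAG. It is a form of the ETS motif, the kind of sequence bound by the deleted factors. Shc1 and Ptpn11 are genes whose groups did not overlap. The letters are the 250 bases before the RefSeq transcription start on GRCm38.p6, another build than the authors' mm9, 5′ to 3′ on the strand of the gene, with the motif CCGGAAG in capitals.
Frs2, chr10:117148475-117148724, minus strand: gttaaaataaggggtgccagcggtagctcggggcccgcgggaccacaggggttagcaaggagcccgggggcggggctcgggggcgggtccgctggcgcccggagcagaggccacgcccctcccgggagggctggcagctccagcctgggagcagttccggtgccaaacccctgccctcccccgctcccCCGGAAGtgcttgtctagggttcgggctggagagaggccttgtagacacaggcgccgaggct
Ptpn11, chr5:121191398-121191647, minus strand: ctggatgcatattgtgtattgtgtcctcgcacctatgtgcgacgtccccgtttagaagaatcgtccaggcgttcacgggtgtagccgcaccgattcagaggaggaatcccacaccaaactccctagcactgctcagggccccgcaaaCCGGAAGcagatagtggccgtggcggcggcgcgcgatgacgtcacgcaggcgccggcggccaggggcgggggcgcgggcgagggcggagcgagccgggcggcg
Shc1, chr3:89418301-89418550, plus strand: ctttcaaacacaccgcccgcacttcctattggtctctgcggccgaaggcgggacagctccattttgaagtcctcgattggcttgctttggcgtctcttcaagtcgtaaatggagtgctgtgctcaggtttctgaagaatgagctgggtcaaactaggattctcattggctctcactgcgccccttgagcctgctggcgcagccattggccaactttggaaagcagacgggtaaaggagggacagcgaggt
The motif and its reverse complement CTTCCGG were searched on the 250 bases before each start. It begins 62 bases before the Frs2 start and 103 bases before the Ptpn11 start. Neither orientation is in the printed Shc1 window, nor in that of a second RefSeq start of Shc1, nor in the windows of Grb2, Crk, Crkl and Braf. Over all 32851 RefSeq promoters of the same length, 6.91% hold the motif in either orientation. A match describes letters and not a bound site. Other forms of the ETS motif, which windows without a match may hold, were not searched. Frs2 and Ptpn11, the genes with a match, had log2 fold changes of -0.04 and 0.47.

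Shc1, the adaptor gene, was lower in the mutant libraries without passing the threshold. It had 122.2, 149.6 and 121.0 CPM in mutant libraries 1, 2 and 3, against 226.2, 167.2 and 152.0 CPM in control libraries 1, 2 and 3. The groups did not overlap, but mutant library 2 and control library 3 lay within a few CPM of each other. The log2 fold change was -0.47 ± 0.18 (edgeR adjusted p = 0.236; SE), a ratio of 0.720 with a 95% interval of 0.544 to 0.952. Within each group the library with the highest crystallin share also had the highest Shc1 value. With crystallin share as a covariate, the log2 fold change of Shc1 was -0.29 (edgeR adjusted p = 0.221), and without control library 1 it was also -0.29 (edgeR adjusted p = 0.499).

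In these libraries, the share of Shc family counts that fell on Shc1 did not overlap between the groups. Shc1 took 78.2%, 75.9% and 76.1% of the counts of Shc1, Shc2, Shc3 and Shc4 in mutant libraries 1, 2 and 3, against 86.0%, 88.1% and 89.0% in control libraries 1, 2 and 3. A share within a library does not depend on how libraries are scaled. The mean share was 76.8% ± 1.26 in mutant and 87.7% ± 1.52 in control libraries (SD, n = 3), a difference of -11.0 percentage points (exact two-sided permutation p = 0.1, the smallest 3 against 3 libraries allow; adjusted p = 0.2 over 6 families). Leaving out any library gave a difference between -11.8 and -10.3 percentage points. Shc3, an adaptor gene of this family known mainly from neurons, rose. It stood at 10.8, 11.2 and 11.1 CPM in mutant libraries 1, 2 and 3, against 4.19, 2.37 and 2.94 CPM in control libraries 1, 2 and 3, an edgeR log2 fold change of 1.81 ± 0.30 with an adjusted p of 0.0195 (SE). The Shc3 call was lost without mutant library 1 or 3 or control library 2 or 3 (edgeR adjusted p between 0.0746 and 0.0972), where the log2 fold change lay between 1.63 and 1.82, and with the replicate block (adjusted p = 0.0757). Shc2, named after its values were seen, averaged 18.7 CPM ± 2.59 in mutant and 13.4 CPM ± 2.93 in control libraries (SD, n = 3), with overlap and no call. With Shc3 left out of the family, a choice made after its values were seen, the share of Shc1 was 82.1% ± 1.77 in mutant and 89.1% ± 1.57 in control libraries (SD, n = 3), again with no overlap (exact permutation p = 0.1).

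Grb2, which encodes the adaptor that brings Sos to the membrane, did not differ beyond the spread of the libraries. Its values were 54.9, 69.2 and 61.9 CPM in mutant libraries 1, 2 and 3, against 69.7, 73.0 and 48.9 CPM in control libraries 1, 2 and 3. Control library 3 was the lowest of all and control library 2 the highest, so the control values enclosed the mutant ones. Its log2 fold change, -0.04 ± 0.18, had a 95% interval of -0.45 to 0.37 (edgeR adjusted p = 0.932; SE).

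Ptpn11, the gene of the phosphatase Shp2 that acts with Frs2 to activate Ras, was higher in every mutant library without passing in edgeR. It had 71.8, 79.2 and 74.7 CPM in mutant libraries 1, 2 and 3, against 57.3, 46.3 and 59.1 CPM in control libraries 1, 2 and 3. The mutant libraries lay close together and above the highest control library by more than 10 CPM. The log2 fold change was 0.47 ± 0.14 (edgeR adjusted p = 0.143; SE), a ratio of 1.39 with a 95% interval of 1.11 to 1.73. It passed with limma voom, at a log2 fold change of 0.54 and an adjusted p of 0.0467, while over all 14 alternatives the adjusted p lay between 0.0467 and 0.367. In the authors' deposited table its log2 fold change was 0.47 with an adjusted p of 0.108. Crystallin share as a covariate left the log2 fold change at 0.48 (edgeR adjusted p = 0.0840).

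Crk and Crkl, the related adaptor genes, stayed within the spread of the libraries. Crk had 248.5, 243.6 and 254.3 CPM in mutant libraries 1, 2 and 3, against 252.4, 232.9 and 227.8 CPM in control libraries 1, 2 and 3. With between 2954 and 4895 counts per library it was the most deeply counted of the 8 genes. Its biological coefficient of variation, edgeR's estimate of the spread between replicates, was 0.135 and lay at percentile 0.490 of all tested genes, a measure that also falls with a gene's depth. Its log2 fold change of 0.07 ± 0.11 (edgeR adjusted p = 0.826; SE) had the narrowest 95% interval of the 8, from -0.20 to 0.33. Crkl had 76.1, 83.4 and 82.8 CPM in mutant libraries 1, 2 and 3, against 108.3, 80.1 and 76.1 CPM in control libraries 1, 2 and 3. Control library 1 alone was high, and the other 5 libraries lay together. The Crkl log2 fold change was -0.13 ± 0.16 (edgeR adjusted p = 0.752; SE), with a 95% interval of -0.49 to 0.24, and it was 0.05 without control library 1. Crk took 75.5% ± 1.02 of the counts of the pair in mutant and 73.1% ± 2.73 in control libraries (SD, n = 3; exact permutation p = 0.2), with overlap.

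Braf, which encodes a kinase that Ras activates, was the most variable of the 8 genes between libraries. Its values were 32.9, 56.1 and 27.7 CPM in mutant libraries 1, 2 and 3, against 39.5, 29.8 and 34.7 CPM in control libraries 1, 2 and 3. Mutant library 2 was far above the others, mutant library 1 lay among the control values and mutant library 3 below them. Over all libraries its log2 fold change was 0.16 ± 0.27 (edgeR adjusted p = 0.813; SE), and without mutant library 2 it was -0.19. In the GENCODE annotation of GRCm38, 146 of 9728 exon bases of Braf overlap Ndufb2 on the opposite strand, and the library kit does not mark strand. Ndufb2 had 72.1, 77.9 and 96.0 CPM in mutant libraries 1, 2 and 3, against 71.9, 94.1 and 69.7 CPM in control libraries 1, 2 and 3. The Ndufb2 log2 fold change was 0.06 ± 0.17 (edgeR adjusted p = 0.896; SE). Reads in the shared bases were not examined, and whether they add to the Braf counts was not tested. The other 7 genes had no exon overlap with another annotated gene.

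Mapk3, the gene of the ERK kinase usually called Erk1, had the lowest p of the 8 genes. It had 60.7, 71.3 and 69.1 CPM in mutant libraries 1, 2 and 3, against 49.9, 50.4 and 45.5 CPM in control libraries 1, 2 and 3. Every mutant library lay above every control library, with mutant library 1 nearest to them. Mapk3 had a log2 fold change of 0.47 ± 0.13 (edgeR adjusted p = 0.123; SE), a ratio of 1.38 with a 95% interval of 1.12 to 1.70. Over the 14 alternatives the log2 fold change lay between 0.40 and 0.53 and the adjusted p between 0.0513 and 0.316, the lowest with crystallin share as a covariate. In the authors' deposited table its log2 fold change was 0.46 with an adjusted p of 0.0872.

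**Figure D2:**
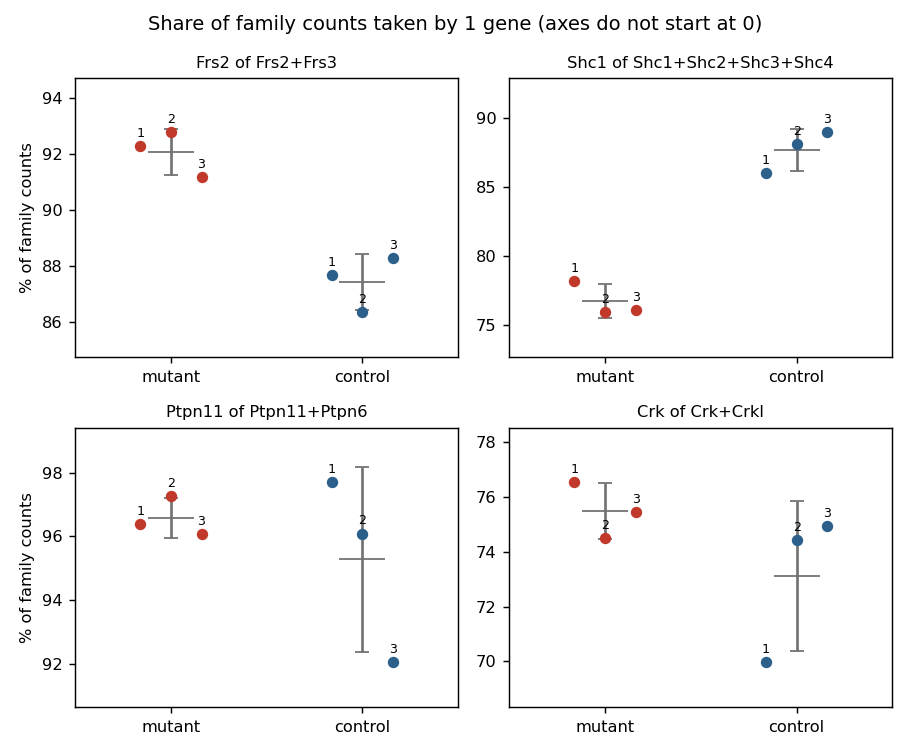
Percent of the counts of a gene family that fall on the named gene, in mutant libraries (left of each panel) and control libraries (right); numbered points are libraries, and grey bars show the mean and SD of 3. The share of Frs2 lies higher and that of Shc1 lower in every mutant library, and those of Ptpn11 and Crk overlap.

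Frs2 took 92.3%, 92.8% and 91.2% of the counts of Frs2 and Frs3 in mutant libraries 1, 2 and 3, against 87.7%, 86.4% and 88.3% in control libraries 1, 2 and 3 (exact permutation p = 0.1; adjusted p = 0.2). Frs2 itself overlapped between groups. Its relative Frs3, which encodes another docking protein and was named after its values were seen, did not. Frs3 averaged 2.26 CPM ± 0.0683 in mutant and 3.87 CPM ± 0.680 in control libraries (SD, n = 3), without passing (edgeR adjusted p = 0.335). Its counts were few, at 45, 28 and 40 in mutant libraries 1, 2 and 3, against 46, 58 and 84 in control libraries 1, 2 and 3. The Frs2 and Frs3 counts together lay between 373 and 717 per library. Ptpn11 took 96.6% ± 0.617 of the counts of Ptpn11 and its relative Ptpn6 in mutant and 95.3% ± 2.91 in control libraries (SD, n = 3; exact permutation p = 0.8), and without control library 3 the difference turned to -0.323 percentage points.

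Levels were compared between genes only per length, as normalized CPM per kb of exon in the GENCODE annotation of GRCm38. The order of the group means was the same in mutant and control libraries, namely Crk, Shc1, Mapk3, Grb2, Crkl, Ptpn11, Frs2 and Braf. In CPM per kb, Crk averaged 52.6 ± 1.13 in mutant and 50.3 ± 2.75 in control libraries, whereas Frs2 averaged 4.13 ± 0.565 in mutant and 4.25 ± 1.07 in control libraries (SD, n = 3). Shc1 and Mapk3 overlapped in the mutant libraries, with means of 34.3 and 33.3 CPM per kb, but not in the control libraries, with means of 47.7 and 24.1 CPM per kb. In the control libraries Crk also overlapped Shc1, Mapk3 overlapped Grb2, and Grb2 overlapped Crkl, whereas in the mutant libraries these neighbours did not overlap. Frs2 and Braf overlapped in both groups. Crkl lay above Ptpn11 without overlap in both groups, where Ptpn11 averaged 13.4 CPM per kb in mutant and 9.67 CPM per kb in control libraries. Exons that a transcript of these cells does not use count toward the length, so the order depends on the annotation.

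**Figure D3:**
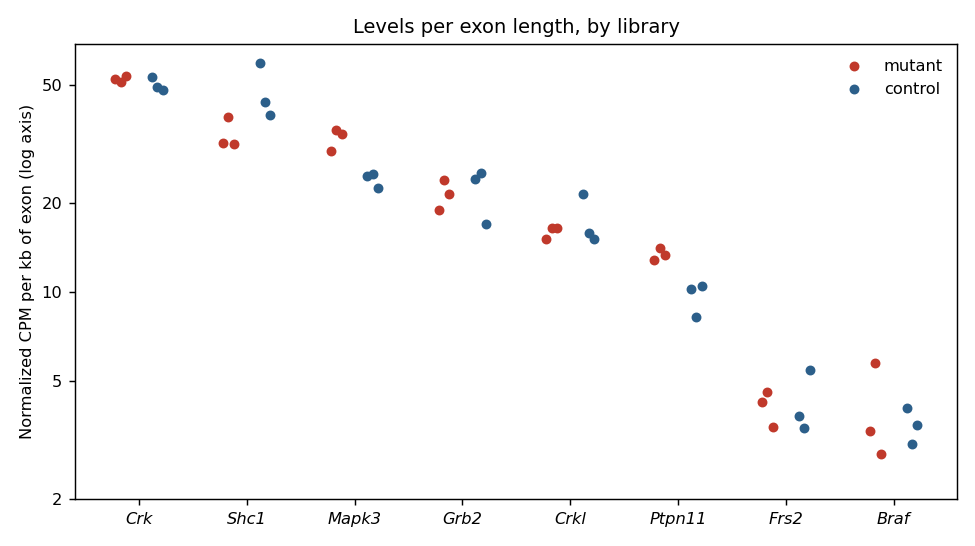
Normalized CPM per kb of exon for the 8 genes on a log axis, with each library as a point, mutant on the left and control on the right of each gene. By group mean, Crk is highest and Frs2 and Braf are lowest in both groups, though Crk and Shc1 overlap in the control libraries. Shc1 and Mapk3 overlap in mutant but not in control libraries.

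Other genes of the pathway were read from 6 lists with 63 entries, of which 62 were found and 58 were tested. In edgeR 1 rose and 1 fell, and 56 did not pass. Over all tested genes 1.14% rose and 1.08% fell. The groups did not overlap for 15 of the 58, or 25.9%, against 22.7% of all tested genes. The median log2 fold change over the 58 genes was -0.01, beside 0.00176 over all tested genes. Among 13 tested docking and adaptor genes Shc3 rose and 12 did not pass. Gab1, a docking protein gene that binds Grb2, had a log2 fold change of 0.09 ± 0.15 (edgeR adjusted p = 0.816; SE).

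None of the 12 tested Ras and exchange factor genes passed in edgeR, where 2 reached an unadjusted p under 0.05. For Mras, an R-Ras relative picked once its values were known and called by both DESeq2 and limma voom, the log2 fold change was -0.82 ± 0.22 (edgeR adjusted p = 0.113; SE). Nras and Hras1, which encode Ras proteins, had log2 fold changes of 0.21 ± 0.14 and 0.05 ± 0.15, and the exchange factor gene Sos1 one of -0.30 ± 0.20 (SE), none of them past the threshold in edgeR.

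Likewise none of the 8 tested Raf, MEK and ERK genes outside the group passed in edgeR, DESeq2 or limma voom, and 2 had an unadjusted p under 0.05 in edgeR. Map2k1, a MEK gene, had 97.5, 107.9 and 109.7 CPM in mutant libraries 1, 2 and 3, against 72.0, 87.8 and 74.3 CPM in control libraries 1, 2 and 3. The groups did not overlap, and its log2 fold change of 0.43 ± 0.13 (edgeR adjusted p = 0.158; SE) was close in size to that of Mapk3. The other MEK gene, Map2k2, had one of -0.04 ± 0.13 (SE). Araf, a relative of Braf, was lower in every mutant library, with a log2 fold change of -0.36 ± 0.14 (edgeR adjusted p = 0.258; SE).

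Kinases activated by ERK included the single gene of the 6 lists that fell. Rps6ka2, which encodes a kinase of the RSK family, had 34.4, 51.4 and 51.3 CPM in mutant libraries 1, 2 and 3, against 128.4, 77.8 and 109.0 CPM in control libraries 1, 2 and 3. All mutant libraries lay below the lowest control library. The log2 fold change was -1.20 ± 0.23 (edgeR adjusted p = 0.0354; SE), and the other 6 tested genes of this list did not pass. The call was lost without mutant library 1 or 3 or control library 1 or 3 (edgeR adjusted p between 0.0760 and 0.136), where the log2 fold change lay between -1.29 and -1.03, and with the replicate block (adjusted p = 0.116). None of 12 scaffold genes passed in edgeR, DESeq2 or limma voom, and 0 reached an unadjusted p under 0.05 in edgeR. Ywhaz, which encodes a protein that binds phosphorylated Raf, had the lowest p among them, at a log2 fold change of 0.27 ± 0.12 (edgeR adjusted p = 0.319; SE). None of 6 tested genes of GTPase-activating proteins for Ras passed in edgeR, DESeq2 or limma voom, and 1 had an unadjusted p under 0.05 in edgeR. This was Rasa3, at 21.4, 12.9 and 24.9 CPM in mutant libraries 1, 2 and 3, against 11.1, 11.6 and 12.0 CPM in control libraries 1, 2 and 3. Mutant library 2 lay just above the control values, and Rasa3 passed without it (log2 fold change 0.996; edgeR adjusted p = 0.0389).

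**Figure D4:**
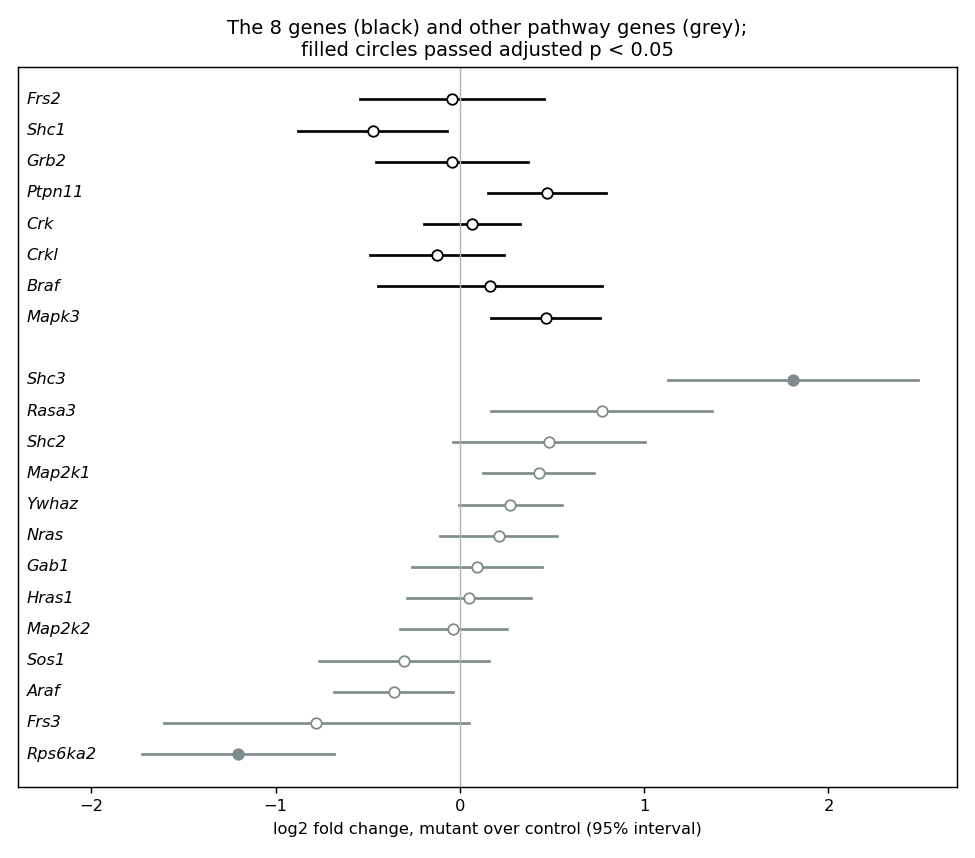
Log2 fold changes of mutant over control with 95% intervals for the 8 genes (black) and other pathway genes (grey), where filled circles passed an edgeR adjusted p of 0.05. Shc3 and Rps6ka2 are filled, and none of the 8 genes is, although the intervals of Shc1, Ptpn11 and Mapk3 do not reach 0.

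Genes with the most similar pattern were taken for the 3 genes of lowest p, by Pearson's r of log2 CPM over the 6 libraries. For Mapk3 these were Bbs10, Isoc2b and Slc27a3 (r between 0.996 and 0.999), of which Slc27a3 rose (log2 fold change 1.25; edgeR adjusted p = 0.0283). For Ptpn11 they were Ppp1r15b, Ctnnb1 and Arnt2 (r between 0.992 and 0.998), and for Shc1 they were Iars, Stab1 and Ginm1 (r between 0.994 and 0.997). These 6 genes did not pass. With 12257 genes and 6 libraries in 2 groups that share their libraries, such values describe a likeness in these libraries alone.

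**Figure D5:**
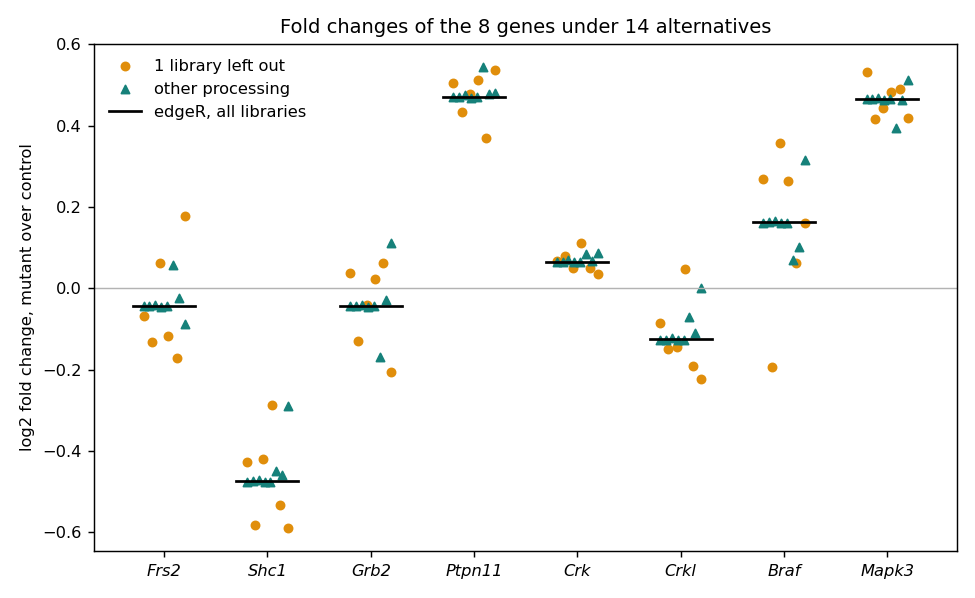
Log2 fold changes of the 8 genes, with a black line for the edgeR fit on all libraries, circles for fits with 1 library left out and triangles for other processing. Ptpn11 and Mapk3 stay above 0 and Shc1 below 0 in all 14 alternatives, Crk stays above 0 close to the line, and Frs2, Grb2, Crkl and Braf fall on both sides.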

How the data were processed

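RNA was amplified with an ultra-low input SMART-seq kit and sequenced, per the labels' protocols. Per the submitters' processing notes, mm9 was the build and TopHat, Cufflinks, DESeq and bcl2fastq 1.8.4 were used, in roles not stated; read counter, annotation and strand setting are also not given in the sources used. Raw counts by gene symbol were deposited by the authors, identical in the library files and the series table (0 differed). Amplification without molecular identifiers means that counts are not independent molecules. The authors' deposited table of their own comparison holds a mean of normalized counts (a signal), log2 fold changes with standard errors, a test score and p-values. Its fold changes had the sign of the counts for 272 of 272 called genes, positive for higher in mutant libraries.

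Counts were fitted with edgeR 4.0.16 (R 4.3.3): filterByExpr (minimum count 10, total 15), TMM scaling and a quasi-likelihood F test (robust, no covariates), adjusted by Benjamini-Hochberg over 12257 genes at 0.05. CPM values use the TMM factors. Standard errors and 95% intervals come from the F statistic. Paralogue shares were compared by exact permutation over libraries. The procedure was tested on simulated data, in which the changes put in were larger than the fold changes of the 8 genes. Recovery of changes of their size was not tested. Alternatives were DESeq2 1.42.0 (size factors and test), limma 3.58.1 voom with library quality weights, and other filters and scaling. Further ones were crystallin share as a covariate, a replicate block and leaving out each library. No library was a copy of another: within groups, pairs had chi-square values of 28.1 to 137 for each degree of freedom.

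The 8 genes and the lists were chosen with earlier results of these data known. Named were the 8 genes; pathway genes past the threshold; core genes fixed by name, among them Sos1, Gab1, Hras1, Nras, Araf, Map2k1 and Map2k2; the gene of lowest p in each list; and, for the 3 of the 8 genes of lowest p, the 3 most similar genes, skipping predicted and small RNA symbols. Some genes that this rule names, and 2 of the 6 paralogue families, are not reported here, though all lists were counted whole. Promoter sequences are RefSeq's on GRCm38.p6, with entries for 7 of the 8 genes. Hras is listed as Hras1. Crystallin share counts genes named Crya, Cryb or Cryg.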

Additional observations from a re-analysis of the deposited data

How the results depend on the processing

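None of the 8 genes passed in 13 of the 14 alternatives, and limma voom called 1 (Ptpn11). The 272 genes called over the whole table were 821 with DESeq2, 808 with limma voom, 798 with crystallin share as a covariate and 122 with the replicate block, and between 91 and 479 when single libraries were left out. The 2 calls among other pathway genes were 4 with DESeq2, 4 with limma voom, 5 with the covariate, 0 with the replicate block and between 0 and 3 with a library left out. Of 112 log2 fold changes of the 8 genes over the alternatives, 10 turned sign. Those of Frs2 were 0.057 with limma voom and between -0.17 and 0.18 with a library left out; of Grb2, 0.11 with the covariate and between -0.21 and 0.063; of Crkl, 0.0015 with the covariate and between -0.22 and 0.048; and of Braf, between -0.19 and 0.36. Among other pathway genes, Gab1 lay between -0.023 and 0.19 with a library left out, Hras1 was -0.070 with limma voom and between -0.020 and 0.17, and Map2k2 was 0.033 with the covariate and between -0.093 and 0.025. The cause was not tested. The share of Ptpn11 in its pair lay between -0.323 and 2.50 percentage points, and no other share difference turned sign. Deviations of libraries of the same replicate number had correlations of -0.284, -0.147 and 0.219 across genes. Mutant libraries 1 and 2 correlated best with a control library of another number, and mutant library 3 with control library 3. Deviations from a mean of 3 libraries depend on each other, so these values cannot decide whether the numbers pair the libraries. With 3 libraries a group, the 95% intervals of all 8 genes lay within 1 of 0 on the log2 scale and had a median width of 0.77.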

Other observations

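Pathway genes with too few counts for a test were Grap, Rasgrp1, Cnksr1 and Ksr2. Rasgrp1, an exchange factor gene known from lymphocytes, had 0 counts in the mutant libraries and 10 in the control libraries, all of them in control library 3. Ksr2, a scaffold gene of the Raf and MEK kinases, had 3, 2 and 3 counts in mutant libraries 1, 2 and 3, against 8, 10 and 5 counts in control libraries 1, 2 and 3. Grap, a relative of Grb2, had 4 counts in all mutant libraries and 11 in all control libraries. Cnksr1 had 21 counts in all mutant libraries and 34 in all control libraries. Markers of macrophages summed to between 3.05 and 12.7 CPM in mutant and between 1.58 and 5.01 CPM in control libraries, and those of endothelium to between 23.2 and 56.0 CPM in mutant and between 33.0 and 44.7 CPM in control libraries. Markers of red blood cells summed to between 106.1 and 367.5 CPM in mutant and between 71.7 and 247.9 CPM in control libraries, with Hba-a1 and Hba-a2 at 0 counts in all 6 libraries. Those of corneal and periocular mesenchyme summed to at most 7.41 CPM in mutant and 12.3 CPM in control libraries, and those of pigment cells to at most 2.56 CPM in mutant and 1.52 CPM in control libraries.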
